A study of Mus musculus with 4 samples.

Results

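The secondary (specific) and tertiary (gelatinase) neutrophil granule genes comprised 10 genes of the 27179 in the expression table, namely Ltf, Camp, Ngp, Lcn2, S100a8, S100a9, Mmp8, Mmp9, Retnlg and Cd177. They were chosen by name as late neutrophil genes, with earlier results of these data known, and matched by NCBI gene number. All 10 were found, and all 10 passed the filter on low values. They were measured by RNA-sequencing in leukemia-initiating cells (LICs), which the labels call LSCs, sorted from the bone marrow of C57BL/6 mice aged 6 weeks. The question of the design was which genes differ between LICs with and without CD274, the immune ligand also named PD-L1. In the model, Lin- fetal liver cells were infected with a retrovirus carrying the MLL-AF9 fusion oncogene and transplanted into irradiated C57BL/6 recipients, so WT and CD274-null leukemias both carry the same oncogene. There were 4 libraries, 2 from WT and 2 from CD274-/- leukemia (CD274-null). The methods name no CD274 deletion in the recipients, so host cells left in a sort may carry CD274 in either group. No source used here says whether the libraries came from separate mice. The p-values and standard errors below therefore rest on the spread between libraries and not on a known spread between mice. In both, limma moderates the spread of each gene toward that of tested genes of similar level. A standard error can thus be smaller than the libraries of that gene alone would give.

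Neutrophils fill their granules in a fixed order as they mature. Primary (azurophilic) granules, with myeloperoxidase and elastase, are made at the promyelocyte stage, specific granules with lactoferrin at the myelocyte stage, and gelatinase granules at the metamyelocyte and band stages. Transcripts of the late granules are therefore markers of maturation in bone marrow, and the transcription factor C/EBPε is known to be needed for several of them. Calprotectin, the heterodimer of S100a8 and S100a9, is mainly cytosolic and is made in large amounts over the same stages.

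The promoters of the 5 members with the highest levels or the widest spread are shown here because these genes shared their lowest library in the values below. Each sequence is the 250 bases before the annotated start, read 5′ to 3′ on the strand of the gene, from RefSeq on GRCm38.p6. Capitals mark TTNNGNAA on either strand (TTNCNNAA on the other), letters shared by C/EBP-type sites. The windows are chr9:111019042-111019291 (plus strand) for Ltf, chr9:110419558-110419807 (plus) for Ngp, chr9:109849457-109849706 (minus) for Camp, chr3:90668821-90669070 (plus) for S100a8 and chr3:90695722-90695971 (minus) for S100a9.
Ltf: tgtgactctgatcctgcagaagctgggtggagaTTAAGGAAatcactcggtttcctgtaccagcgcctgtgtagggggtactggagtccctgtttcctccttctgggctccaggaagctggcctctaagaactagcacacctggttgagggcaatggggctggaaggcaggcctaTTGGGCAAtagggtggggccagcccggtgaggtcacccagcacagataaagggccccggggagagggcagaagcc
Ngp: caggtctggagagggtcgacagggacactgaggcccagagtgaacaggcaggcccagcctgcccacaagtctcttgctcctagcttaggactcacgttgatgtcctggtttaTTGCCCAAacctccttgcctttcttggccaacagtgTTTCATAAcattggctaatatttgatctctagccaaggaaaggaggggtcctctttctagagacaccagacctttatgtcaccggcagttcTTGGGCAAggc
Camp: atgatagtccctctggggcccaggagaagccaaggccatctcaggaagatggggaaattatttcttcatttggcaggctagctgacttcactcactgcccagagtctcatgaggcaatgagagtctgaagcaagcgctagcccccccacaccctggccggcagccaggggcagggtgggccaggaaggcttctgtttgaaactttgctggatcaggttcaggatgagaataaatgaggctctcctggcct
S100a8: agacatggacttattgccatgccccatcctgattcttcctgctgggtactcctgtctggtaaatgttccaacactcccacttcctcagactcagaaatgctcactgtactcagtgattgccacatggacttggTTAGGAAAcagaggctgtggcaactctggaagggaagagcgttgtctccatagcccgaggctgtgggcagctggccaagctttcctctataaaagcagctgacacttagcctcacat
S100a9: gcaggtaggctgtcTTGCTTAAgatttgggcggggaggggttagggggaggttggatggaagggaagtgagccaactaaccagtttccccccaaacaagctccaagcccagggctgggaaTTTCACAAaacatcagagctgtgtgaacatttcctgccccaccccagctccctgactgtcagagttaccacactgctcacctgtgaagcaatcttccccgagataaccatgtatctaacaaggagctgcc

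RefSeq promoters were matched for 9 members, all but Mmp9. TTNNGNAA occurred in 8 of these 9 windows and in 36.8% of all 32851 windows of this length. The exception was Camp, whose window lacks these letters. Counted in bases before the start, the first base of the match lay at 217 and 75 in Ltf, at 138, 102 and 11 in Ngp, at 117 in S100a8, and at 236 and 130 in S100a9. The stricter form TTGCNNAA, contained in TTNNGNAA, occurred on either strand in 6 of the 9 windows, those of Ltf, Ngp, Lcn2, S100a9, Mmp8 and Retnlg, against 9.56% of all windows. GAGGAA, letters of sites for the myeloid factor PU.1, was found on either strand in 5 of 9 windows and in 23.3% of all. TATAAA was present on either strand in those of S100a8 and Cd177 only among the 9, and in 12.4% of all. A match describes letters in a window and not a bound site.

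The deposited values are FPKM, that is, fragments divided by gene length and by library depth, so levels of different genes can be set side by side. The reads behind them, recovered up to a common factor, summed to between 8434018 and 11039877 per library. Genes were compared on log2(FPKM + 0.5) with limma for 13230 genes, and candidates had an unadjusted p under 0.01 with a fold change above 1.5. Gene positions are those of RefSeq on GRCm38.p6. Values in sets of 4 are given throughout in the same order, the WT replicates before the CD274-null replicates and replicate 1 before replicate 2. The deleted gene did not separate the libraries. Cd274 had an FPKM of 2.80 and 0.945 in the libraries labelled WT and of 1.43 and 2.29 in those labelled CD274-null, from 118, 35, 46 and 83 reads (log2 fold change 0.09, adjusted p = 0.955, limma with Benjamini-Hochberg adjustment). A sum over all exons cannot show the loss of some of them, and the genotype of every library rests on its label here. Of the genes that define the sorted cells, Itgam, which encodes Mac-1, had an FPKM of 140, 174, 100 and 164, and Hoxa9, a target of MLL-AF9, had 75.8, 74.3, 71.3 and 72.9. Kit, which encodes c-Kit, was at 6.59, 18.2, 16.2 and 19.5, lowest in WT replicate 1. The libraries also differed in genes that mark the sex of cells: Xist, of the inactive X chromosome, had an FPKM of 2.57, 51.1, 107 and 68.7, and 4 Y chromosome genes (Ddx3y, Eif2s3y, Kdm5d and Uty) summed to 86.0, 66.2, 0.0460 and 29.4. Their part in the granule gene values was not tested.

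The granule genes were far apart in the WT libraries and closer in the CD274-null ones. In each of the 10 members the difference between the WT replicates on the log2 scale was larger than the difference between the genotype means, which held for 52.8% of all tested genes. WT replicate 1 exceeded WT replicate 2 by more than 2-fold in 9 of the 10, all but Mmp9, and this was so in 4.86% of all tested genes (11.4% when either direction was counted). WT replicate 2 was the lowest of the 4 libraries in the same 9 genes (24.2% of all tested genes). WT replicate 1 was the highest in 8 (23.9% of all), while Ltf and Camp were highest in CD274-null replicate 2. The CD274-null replicates were more than 2-fold apart in 1 member, Camp (6.61% of all), and CD274-null replicate 2 was the higher of the pair in 9, all but Mmp8 (34.4% of all).

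**Figure D1:**
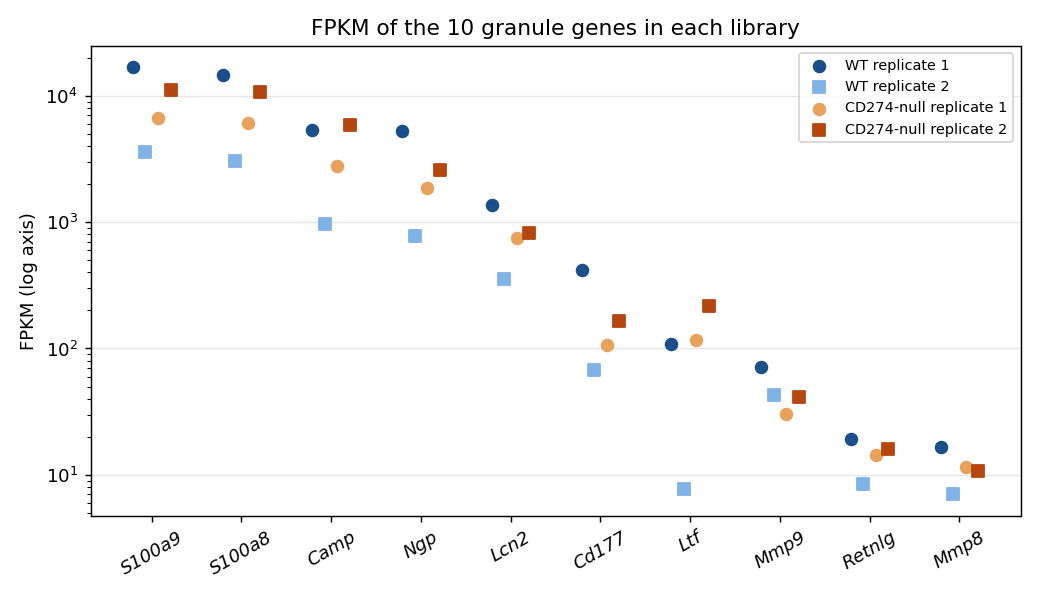
FPKM (log axis) of each of the 10 granule genes in the 4 libraries, with blue for WT and orange for CD274-null, circles for replicate 1 and squares for replicate 2. WT replicate 2 lies lowest in 9 genes, and the CD274-null libraries lie between the WT libraries in 7 of them.

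Summed over the 10 members, their share of all FPKM was 8.59% and 1.8% for the WT replicates and 3.62% and 6.03% for the CD274-null replicates. By mean FPKM over the 4 libraries the order was S100a9 (9551), S100a8 (8576), Camp (3751), Ngp (2619), Lcn2 (819), Cd177 (189), Ltf (113), Mmp9 (46.8), Retnlg (14.4) and Mmp8 (11.4). The ranges over libraries overlapped between all neighbours in this order except Mmp9 and Retnlg. S100a9 was the most abundant transcript in WT replicate 1 and ranked 6, 2 and 2 in the other libraries. Camp ranked 3, 53, 12 and 5, and Ngp ranked 4, 65, 19 and 12.

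Lactoferrin, the iron-binding protein that defines specific granules, had the widest spread. Ltf (NCBI gene 17002, chr9:111019292-111042766) had an FPKM of 109 and 7.74 in WT and of 117 and 216 in CD274-null, from 3469, 216, 2833 and 5902 reads. WT replicate 2 stood alone at the bottom, 14.1-fold below the other WT library, while WT replicate 1 was close to CD274-null replicate 1. The WT difference was 3.74 on the log2 scale, and 0.317% of all tested genes had one at least as large in either direction. Ltf was 1.85-fold higher in CD274-null replicate 2 than in replicate 1, a log2 difference of 0.88 that 8.75% of genes reached. The groups did not overlap, with a mean FPKM of 58.5 ± 71.9 in WT and 166 ± 70.2 in CD274-null (SD, n = 2 each), a ratio of 2.84. The difference between the group means of log2(FPKM + 0.5), the log2 fold change used throughout, was 2.41 with a standard error of 1.10. This did not pass the test (adjusted p = 0.403, limma with Benjamini-Hochberg adjustment).

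Camp, the precursor of the cathelicidin antimicrobial peptide stored in specific granules (NCBI gene 12796, chr9:109847377-109849456), had an FPKM of 5330 and 964 in WT and of 2793 and 5918 in CD274-null. The 2 genotypes interleaved, with the highest value in CD274-null replicate 2 and the lowest in WT replicate 2. It was the only member with a more than 2-fold difference in both pairs, 5.53-fold between the WT libraries and 2.12-fold between the CD274-null ones, and 5.56% of all tested genes differed by at least as much within CD274-null. The log2 fold change was 0.84 with a standard error of 0.84 (adjusted p = 0.681, limma).

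Ngp, neutrophilic granule protein of the cystatin-cathelicidin family (NCBI gene 18054, chr9:110419808-110423012), had an FPKM of 5231 and 778 in WT and of 1869 and 2597 in CD274-null. Both CD274-null values lay between the WT values, which were 6.72-fold apart (log2 difference 2.75, reached by 0.877% of genes). Its log2 fold change was 0.13 with a standard error of 0.85 (adjusted p = 0.961, limma). Lcn2, the siderophore-binding lipocalin NGAL (NCBI gene 16819, chr2:32384637-32387739), was at 1359 and 353 in WT and at 742 and 822 in CD274-null. The CD274-null pair was tight at 1.11-fold, inside a 3.84-fold gap between the WT libraries. The log2 fold change of Lcn2 was 0.17 with a standard error of 0.61 (adjusted p = 0.922, limma).

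The calprotectin genes moved as a pair. S100a8 (NCBI gene 20201, chr3:90669071-90670034) had an FPKM of 14524 and 3043 in WT and of 6114 and 10624 in CD274-null. S100a9 (NCBI gene 20202, chr3:90692630-90695721) had 16802 and 3590 in WT against 6656 and 11155 in CD274-null. WT replicate 1 was 4.77-fold and 4.68-fold above WT replicate 2, and CD274-null replicate 2 was 1.74-fold and 1.68-fold above replicate 1, for S100a8 and S100a9 respectively. Neither gene differed between genotypes beyond this spread, with log2 fold changes of 0.28 (standard error 0.82) and 0.15 (standard error 0.82) and adjusted p = 0.907 and 0.951 from limma. The ratio of S100a9 to S100a8 FPKM was 1.16, 1.18, 1.09 and 1.05, so their proportion moved by 1.12-fold while the level of each moved by more than 4-fold.

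Among the metalloproteinases, Mmp8, neutrophil collagenase of specific granules (NCBI gene 17394, chr9:7558429-7568486), had an FPKM of 16.5 and 7.01 in WT and of 11.6 and 10.6 in CD274-null. It was the 1 member that was not higher in CD274-null replicate 2 than in replicate 1. The log2 fold change of 0.04 had a standard error of 0.41 (adjusted p = 0.977, limma), and 175 to 469 reads stood behind each value. Mmp9, the gelatinase that names the tertiary granule (NCBI gene 17395, chr2:164940326-164955850), was at 72.0 and 43.0 in WT and at 30.5 and 41.7 in CD274-null. Here the WT values lay above both CD274-null values, but WT replicate 2 and CD274-null replicate 2 were nearly level. The WT libraries were 1.68-fold apart, a difference that 20.2% of all tested genes reached, the smallest WT spread of the members. Its log2 fold change was -0.63 with a standard error of 0.31 (adjusted p = 0.422, limma).

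Retnlg, a resistin-like secreted protein of neutrophils (NCBI gene 245195, chr16:48872608-48874498), had an FPKM of 19.1 and 8.40 in WT and of 14.3 and 16.0 in CD274-null, from 52 to 134 reads. Both CD274-null libraries lay inside the 2.27-fold range of the WT libraries. Cd177, a GPI-anchored neutrophil surface glycoprotein also stored in specific granules (NCBI gene 68891, chr7:24743983-24760334), was at 416 and 67.4 in WT and at 107 and 165 in CD274-null. WT replicate 1 stood 6.18-fold above WT replicate 2 and well above both CD274-null libraries. The log2 fold changes were 0.25 (standard error 0.40, adjusted p = 0.816) for Retnlg and -0.33 (standard error 0.79, adjusted p = 0.882) for Cd177, both from limma.

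**Figure D2:**
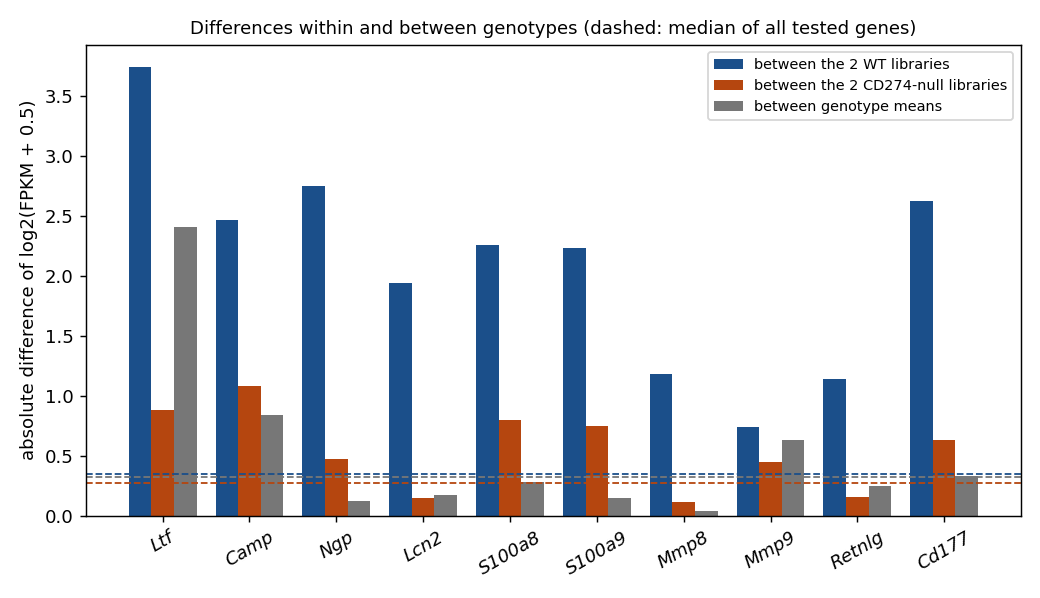
Absolute difference of log2(FPKM + 0.5) for each member between the WT libraries (blue), between the CD274-null libraries (orange) and between the genotype means (grey), with dashed lines at the medians of all tested genes. The blue bar is the tallest in all 10 genes, from 0.74 in Mmp9 to 3.74 in Ltf.

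Between genotypes, 0 of the 10 members were candidates, against 480 of the 13230 tested genes (3.63%), and 0 had an adjusted p under 0.05 in limma, against 10 tested genes (0.0756%). None had an unadjusted p under 0.05 in the same fit, where 13.7% of all tested genes did, and none was a candidate with voom on the recovered reads. The median log2 fold change of the members was 0.16 (0.01 over all tested genes), with 8 higher and 2 lower in CD274-null, none of them past the test. The median absolute fold change of 0.26 was no larger than the 0.33 of all tested genes. The groups did not overlap in 2 members, Ltf with higher and Mmp9 with lower values in CD274-null, where 47.3% of all tested genes did not overlap.

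The spread within genotypes set the precision of this comparison. The median absolute difference between the WT replicates was 2.24 on the log2 scale for the members and 0.34 for all tested genes, and within CD274-null it was 0.55 against 0.28. The median standard error of the log2 fold change was 0.80 for the members and 0.30 for all tested genes. The sign of several fold changes also depended on the scale. Ngp, Lcn2, S100a8, S100a9 and Mmp8 had positive log2 fold changes, yet the CD274-null mean FPKM was 0.743, 0.914, 0.953, 0.873 and 0.944 times the WT mean. Ltf, Camp and Retnlg were higher and Mmp9 and Cd177 lower in CD274-null on both scales.

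Which WT library entered the fit turned the direction of most members. Without WT replicate 1, 9 members were higher and 1 lower in CD274-null, at a median of 1.20 on the log2 scale, and Ltf became a candidate at 4.27 (adjusted p = 0.133, limma). Without WT replicate 2, 1 member was higher and 9 lower, with a median of -0.82, and Cd177 became a candidate at -1.64 (adjusted p = 0.165, limma). In these fits the lone WT library is assumed to vary as the CD274-null libraries do. Only Ltf, from 0.54 to 4.27, and Mmp9, from -1.0 to -0.26, kept their sign whichever library was left out.

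**Figure D3:**
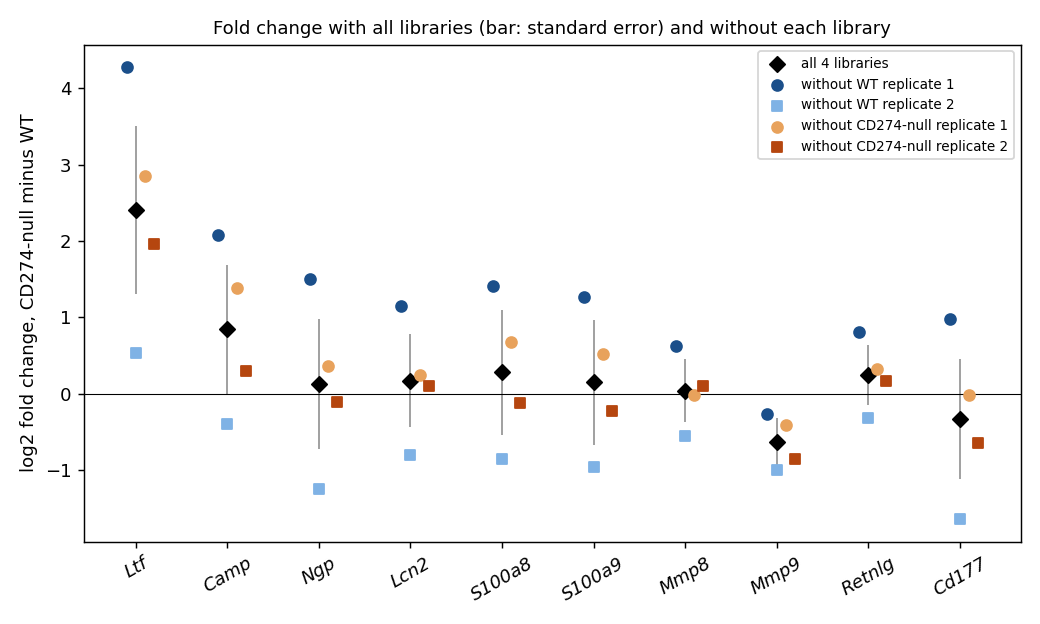
Log2 fold change, CD274-null minus WT, of each member with all 4 libraries (black diamonds, bars for the standard error) and with each library left out (coloured by the library removed). Leaving out WT replicate 1 moves every gene up and leaving out WT replicate 2 moves every gene down, and 8 of the 10 genes change sign under at least 1 of the 4 omissions.

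The members did not keep fixed proportions. The ratio of Camp to Ngp FPKM was 1.02, 1.24, 1.49 and 2.28, lower in both WT than in both CD274-null libraries. The ratio of Ltf to Camp was 0.0205 and 0.00803 in WT against 0.0418 and 0.0365 in CD274-null, a 5.21-fold range over libraries, and that of Ltf to Lcn2 spanned 12-fold. These ratios were chosen with the values known and were not tested. Ltf, Camp and Ngp are neighbours on chromosome 9, with 570 kb between Camp and Ngp, 596 kb between Ngp and Ltf, and 1.17 Mb between Camp and Ltf. S100a8 and S100a9 lie 22.6 kb apart on chromosome 3.

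The mean profile of the members, centred per gene on the log2 scale, was 0.89, -1.22, -0.10 and 0.43. Among the 9268 genes whose mean FPKM reached 5, the nearest to it outside the members by Euclidean distance over the 4 libraries were Slco4a1 (distance 0.20), Gm1096 (0.22), Mat2a (0.28), Slc16a1 (0.30) and Pim3 (0.33). The members themselves lay between 0.23 (S100a8) and 2.39 (Ltf) from it, so several were farther from their own mean than these genes. Mat2a, which encodes the enzyme subunit that makes S-adenosylmethionine, had an FPKM of 162, 48.5, 99.0 and 132. With 4 libraries, likeness of profile is a description only.

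Other granule genes followed the members only in part. Of 18 further specific and gelatinase granule genes, 17 were tested. WT replicate 1 was more than 2-fold above WT replicate 2 in 5 (4.86% of all tested genes). Their median WT difference was 0.38 with its sign and 0.65 as an absolute value, against 2.24 for the members. Itgb2l, a neutrophil integrin subunit (92.9, 15.5, 38.8 and 66.6), and Fcnb, ficolin B (395, 101, 224 and 565), had the same order of the WT libraries as the members. Of the 3 with the highest level, Chil3, a chitinase-like protein, was at 4756, 2467, 3188 and 1287, Hp, haptoglobin, at 1517, 1162, 1254 and 1381, and Cyba, a subunit of the NADPH oxidase, at 832, 811, 725 and 856. Slpi, a protease inhibitor of specific granules, ran the other way between the WT libraries, at 274 and 1017. Within CD274-null it was at 341 and 1378, higher in replicate 2 as most members were. Of the 17, 1 was a candidate, against 3.63% of all tested genes. This was Olfm4, olfactomedin 4 of specific granules, at 1238 and 408 in WT and at 137 and 211 in CD274-null (log2 fold change -2.06, adjusted p = 0.274, limma). Itgb2l, Fcnb and Slpi were named after their values were seen.

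Neutrophil maturation genes outside the granules came closest to the members. Of 18 tested, 9 were more than 2-fold higher in WT replicate 1 than in WT replicate 2 (4.86% of all tested genes). The median WT difference was 0.97. Il1r2, the decoy interleukin-1 receptor, was at 137, 6.95, 7.41 and 4.34, Ifitm6 at 684, 42.3, 129 and 65.2, and Cxcr2, the chemokine receptor of mature neutrophils, at 19.7, 1.03, 2.86 and 2.11. These were high in WT replicate 1 alone, unlike Ltf and Camp, which were also high in CD274-null replicate 2. Ly6g, the antigen of mature granulocytes, was at 4.27, 0.485, 8.10 and 19.1, the same order of libraries as Ltf. These values came from only 20, 2, 29 and 77 reads. The most abundant were Stfa1 (4143, 2994, 1961 and 3578), Anxa1 (625, 342, 256 and 327) and Stfa2l1 (456, 265, 251 and 298). None of the 18 was a candidate (3.63% of all tested genes), and 3 had an unadjusted p under 0.05 in limma (13.7% of all). Il1r2, Ifitm6, Cxcr2 and Ly6g were named after their values were seen.

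Primary granule genes differed less between the WT libraries. In 11 tested genes the median difference was 0.14 with its sign and 0.46 as an absolute value, against 2.24 for the members on either count. WT replicate 1 was more than 2-fold above WT replicate 2 in 1 of the 11 (4.86% of all tested genes). WT replicate 2 was the lowest of the 4 libraries in 6 (24.2% of all). Elane, neutrophil elastase, was at 3818, 2780, 4673 and 3409, Prtn3, proteinase 3, at 2823, 2565, 3394 and 3288, and Srgn, the proteoglycan that packs granule proteins, at 1306, 1767, 1175 and 947. Mpo, myeloperoxidase, was the 1 candidate of the 11 (3.63% of all tested genes). It was at 444 and 403 in WT and at 1427 and 925 in CD274-null (log2 fold change 1.44, adjusted p = 0.251, limma). The ratio of S100a8 to Mpo FPKM was 32.7, 7.56, 4.29 and 11.5. It was highest in WT replicate 1 and lowest in CD274-null replicate 1.

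**Figure D4:**
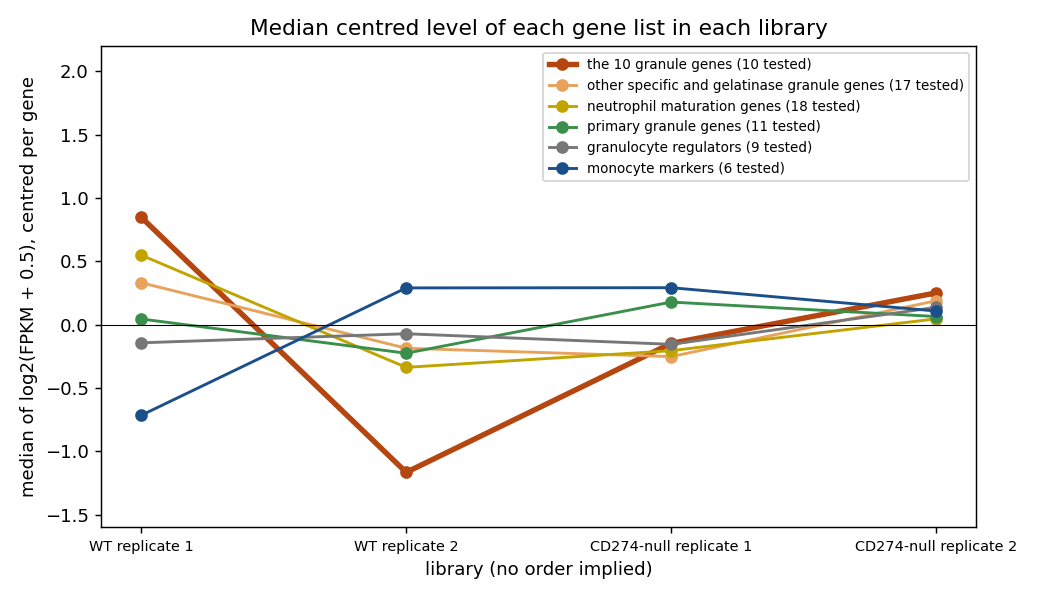
Median over each gene list of log2(FPKM + 0.5), centred per gene, in each library, with lines joining the points of a list and no order of libraries implied. The 10 granule genes span 0.85 to -1.17 between the WT libraries, the maturation genes and other granule genes less, and the monocyte markers run in the opposite direction.

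The summed levels of monocyte, erythroid, B cell, and eosinophil, basophil and mast cell markers were lower in WT replicate 1 than in WT replicate 2, opposite to the granule genes. So was the T cell sum, from markers mostly under an FPKM of 1, while macrophage markers went either way. In bulk RNA, fewer cells of a type and less RNA per cell cannot be told apart. Cd34, a progenitor antigen, was at 4.32, 31.7, 14 and 28.9, lowest, as Kit was, in WT replicate 1. Over the 8 leukemia-initiating cell genes the median difference of WT replicate 1 from WT replicate 2 was -0.20 on the log2 scale, against -0.06 over all tested genes. The 6 monocyte markers summed to an FPKM of 487 and 877 in WT and of 880 and 868 in CD274-null. Their median WT difference was -1.05 on the log2 scale. The 8 eosinophil, basophil and mast cell markers summed to 58.3 and 489 in WT and to 110 and 335 in CD274-null. Prg2, an eosinophil granule protein, had 19.6, 395, 41.0 and 236 of these and was most of the sum in replicate 2 of either genotype only. Erythroid markers, 10 of 11 in the table, summed to 3.15 and 55.7 in WT and to 4.92 and 0.589 in CD274-null. Slc4a1 and Car1 were at 0 in all 4 libraries, and in WT replicate 2 the sum was mainly globin. The 10 macrophage markers summed to 173 and 154 in WT and to 109 and 118 in CD274-null. Of the 6 tested, 5 were higher in WT replicate 1 than in WT replicate 2, with a median difference of 0.82 over the 6. Among these 5, C1qa, C1qb and C1qc had an FPKM of 3.91 or less in every library. Adgre1 ran the other way at 22.2 and 47.1 in WT. Vcam1, an adhesion molecule, was most of the WT sums at 117 and 92.3. It was the 1 candidate of the 6, against 3.63% of all tested genes (log2 fold change -0.87, adjusted p = 0.272, limma). B cell markers (10), with 8 under an FPKM of 1 in every library, summed to 13.1 and 37.2 in WT and to 37.2 and 41.0 in CD274-null. Plasma cell markers (7) summed to 1.44 and 1.34 in WT and to 15.3 and 13.6 in CD274-null, in CD274-null mostly Jchain, the immunoglobulin joining chain. Jchain was the 1 candidate among the 2 tested genes of this list, against 3.63% of all (log2 fold change 3.65, adjusted p = 0.0369, limma). This adjusted call was lost with no filter, without moderation, with voom, with GC correction and without either CD274-null library, where 0 genes had an adjusted p under 0.05. The T cell markers (8), with 6 under an FPKM of 1 in every library, summed to 0.878 and 2.58 in WT and to 4.6 and 1.92 in CD274-null. The part of these cells in the granule gene values was not tested.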

How the data were processed

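The authors sequenced TruSeq v2 libraries of sorted LICs on a HiSeq2500 and aligned reads to GRCm38 with Tophat. The submitters' processing notes list TopHat2 2.0.12 and CASAVA 1.8.2. The authors deposited FPKM per gene and library, not log-transformed; the tool, gene lengths and strand setting behind FPKM are not given in the sources used here. The paper's methods speak of RNA from tissue, the labels of sorted cells. Columns were matched to samples by title, with 0 sample columns unassigned. Symbols came from RefSeq GRCm38.p6 (25275 of 27179 genes).

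Within a gene, FPKM values stood in ratios of whole numbers. Reads could be recovered for all (100%) of the 17083 genes detected in 2 or more libraries, within 0.02 of a whole read, up to a factor shared by the 4 libraries, so that they are lower bounds. Depth relative to WT replicate 1 was 0.880, 0.764 and 0.861 in the others.

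The 13230 genes whose mean FPKM reached 0.5 were compared without covariates on log2(FPKM + 0.5) by limma 3.58.1 (R 4.3.3; lmFit, then eBayes with trend), with Benjamini-Hochberg adjustment, after a test on simulated data. This scale makes changes of weakly expressed genes look smaller. Candidates had p under 0.01 and fold change above 1.5. Genes could be named if they were members, Cd274, candidates or among the 3 most abundant of a list, or the 5 nearest profiles. Others are marked where named, apart from markers of sex, of the sorted cells and of other cell types. Members and lists were chosen with earlier results of these data known. BC100530 and Hbb-bt had no row, and a listed marker gene is not reported here by name. Alternatives were pseudocounts of 0.1 and 1, no filter, a filter at a mean FPKM of 5, quantile normalization, equal medians, eBayes without trend, no moderation, voom on recovered reads, a replicate block and leaving out each library. GC correction (loess, span 0.3), with and without the block, was added after the data were seen. Sequences were searched with Python 3.11.15.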

Additional observations from a re-analysis of the deposited data

How the results depend on the processing

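With 2 libraries per genotype, no member's fold change was larger than the spread of its WT libraries. Under the 12 alternatives that kept every library, no member changed direction and none became a candidate, with adjusted p no lower than 0.333. Candidate genes numbered 480, 170 with a linear model without moderation, 275 with GC correction and a replicate block, and 147 to 634 when a library was left out (459 without WT replicate 1, 634 without WT replicate 2, 235 without CD274-null replicate 1, 147 without CD274-null replicate 2). The cause was not tested. Genes with an adjusted p under 0.05 numbered 0 to 21. The replicate numbers were treated as names only, since deviations of same-numbered libraries had a correlation of -0.02 across genes. The replicate block gave 526 candidates, none a member (lowest adjusted p of a member 0.333, limma). The median difference within CD274-null was 0.35 after quantile normalization. When a library was left out, 0 to 1 members were candidates and the median log2 fold change ran from -0.82 to 1.20. For single members it ran from -1.64 to 0.98 (Cd177), -0.39 to 2.08 (Camp), -1.25 to 1.5 (Ngp), -0.80 to 1.14 (Lcn2), -0.85 to 1.40 (S100a8), -0.96 to 1.26 (S100a9), -0.55 to 0.63 (Mmp8) and -0.32 to 0.81 (Retnlg). Among the members, depth limits Retnlg most, with 52 reads in WT replicate 2.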

Other observations

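Regulators of granulocyte development went either way between the WT libraries. Of 9 tested, 5 were higher in WT replicate 1, 0 by more than 2-fold, and 1, Irf8, was more than 2-fold higher in WT replicate 2. The median absolute WT difference was 0.38 on the log2 scale, against 2.24 for the 10 granule genes. Values are FPKM, the WT replicates before the CD274-null replicates. Cebpe, which encodes C/EBPε, was at 66.5, 113, 136 and 203, lowest in the library where most members were highest (log2 fold change 0.93, adjusted p = 0.333, limma). Gfi1, a repressor needed for neutrophil development, was at 98.1, 109, 137 and 118, and Spi1, which encodes PU.1, at 356, 332, 271 and 260. Irf8, a factor that favours monocytes over granulocytes, was at 8.10, 30.4, 41.6 and 81.4 (log2 fold change 1.85, adjusted p = 0.313, limma) and was named after its values were seen. Stat3, which acts downstream of the G-CSF receptor, was the 1 candidate of the 9 (3.63% of all tested genes). It was at 112 and 85.2 in WT against 56.0 and 45.4 in CD274-null (log2 fold change -0.95, adjusted p = 0.272, limma).

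Of 16 receptors, partners and inhibitors of the member proteins, 13 were tested. Cd14, the co-receptor of Tlr4 for calprotectin and lipopolysaccharide, was the 1 candidate of the 13 (3.63% of all tested genes). It was at 57.4 and 39.6 in WT against 23.2 and 26 in CD274-null (log2 fold change -0.94, adjusted p = 0.274, limma). Tlr4 itself was at 11.6, 6.28, 4.23 and 2.17. Itgb2, the Mac-1 partner chain, was at 213, 194, 138 and 175, and Bsg, a receptor of S100a9, at 109, 134, 131 and 137. Timp1, the inhibitor of Mmp9, was at 0.127 or less in all 4 libraries. Tlr4 and Timp1 were named after their values were seen.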
